A study of Rattus norvegicus with 9 samples.

Results

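The nuclear genes of the respiratory chain and of ATP synthase were followed in the posterior cricoarytenoid of rats aged 6, 18 and 30 months. A probe set belonged to the set when its single gene symbol began with Nduf, Sdh, Uqcr, Cox and a digit, or Atp5, or was Cycs or Cyc1. This gave 102 probe sets for 56 genes, of 4736 genes with a single symbol on the array, and the probe set of strongest mean signal stood for each gene. The set held 24 subunits of complex I, 1 of complex II, 4 of complex III, 12 of complex IV, 9 of ATP synthase, and 6 assembly factors, inhibitors, paralogues and a pseudogene. *Cyc1* was among them, whereas *Cycs* was not analysed here, and 7 probe sets that share a symbol of the family with another gene were left out. After a filter that kept the upper 60% of probe sets by signal, 55 of the 56 genes were tested. The pseudogene *Cox6c-ps1* did not pass it, with mean signals of 18.7, 44 and 33.4 at 6, 18 and 30 months.

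The posterior cricoarytenoid is the muscle that opens the vocal folds. For each age there were 3 Rat Genome U34 arrays from Affymetrix, every one hybridized with pooled RNA of 4 animals, so the spread between arrays is one between pools. All groups were of different ages and no treatment is named; the labels name no strain or sex. The study asked how expression in this muscle shifts with age, with 6 months as the baseline. Median signals per array were 104 to 125, and the 56 genes carried 6.93 to 6.95% of the summed signal at 6 months, 7.06 to 7.18% at 18 months and 6.72 to 7.17% at 30 months. The number of arrays limits the precision, and in whole muscle more mitochondria-rich fibres and more RNA per fibre cannot be told apart. Markers of skeletal muscle were strong, with *Ckm*, muscle creatine kinase, at a 6-month mean signal of 34163 and *Myh13*, the myosin of eye and laryngeal muscles, at 11394. The cartilage markers *Acan*, *Col2a1* and *Comp* lay below the filter. Of the brown adipocyte markers *Ucp1*, which defines brown fat, and *Dio2* also lay below it, while *Cidea* passed, with a 6-month mean signal of 375.

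The respiratory chain passes electrons from NADH and succinate to oxygen and pumps protons across the inner mitochondrial membrane. Complex I oxidizes NADH, complex II oxidizes succinate, complex III hands electrons from ubiquinol to cytochrome c, and complex IV reduces oxygen. ATP synthase lets the protons return through its rotor and makes ATP. Muscles that contract all day, as the respiratory muscles of the larynx do, depend on this machinery. Complex IV has subunits with separate genes for contractile and for other tissues, such as *Cox6a2* and *Cox8b* against *Cox6a1* and *Cox8a*.

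Promoter sequences are shown for the subunit 8 pair and for *Cox6a2*, because these isoform genes are compared in the account of complex IV, and because the matches found differ between the forms of subunit 8. Each run is the 250 bases before the annotated start, 5′ to 3′ on the gene's strand, from RefSeq on GRCr8. Capitals mark matches on either strand to CCGGAAG (the core bound by GABP and other ETS factors), to CAGCTG (a form of the E-box read by myogenic factors), to TATAAA, or to the NRF-1 or MEF2 consensus, which are given by name.
*Cox8a*, chr1:213833624-213833873, minus strand: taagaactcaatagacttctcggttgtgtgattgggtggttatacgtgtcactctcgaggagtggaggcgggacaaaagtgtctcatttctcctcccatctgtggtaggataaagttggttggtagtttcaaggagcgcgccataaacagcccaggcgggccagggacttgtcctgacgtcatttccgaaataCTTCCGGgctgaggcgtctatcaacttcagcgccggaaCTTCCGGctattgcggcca
*Cox8b*, chr1:205408274-205408523, minus strand: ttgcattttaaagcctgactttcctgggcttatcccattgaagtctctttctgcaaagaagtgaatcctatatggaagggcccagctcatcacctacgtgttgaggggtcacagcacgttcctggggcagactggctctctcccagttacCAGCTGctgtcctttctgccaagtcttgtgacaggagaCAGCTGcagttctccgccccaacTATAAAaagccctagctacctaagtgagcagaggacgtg
*Cox6a2*, chr1:192219717-192219966, minus strand: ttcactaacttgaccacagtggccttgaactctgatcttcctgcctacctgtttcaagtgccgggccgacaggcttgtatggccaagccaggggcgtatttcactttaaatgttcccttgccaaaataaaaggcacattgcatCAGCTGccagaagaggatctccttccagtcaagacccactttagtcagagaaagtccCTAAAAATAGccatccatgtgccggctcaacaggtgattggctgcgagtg
The *Cox8a* stretch held 2 GABP cores and no other match. The *Cox8b* stretch held 2 E-boxes and 1 TATA box, and the *Cox6a2* stretch 1 E-box and 1 MEF2 match. No match overlapped another. In windows that add 50 bases after the start, 47 member genes had an entry, of which 10 (21.3%) held the GABP core, against 8.75% of all 33469 promoters. The NRF-1 site was found in 6 (12.8%) against 4.25%, CAGCTG in 10 (21.3%) against 15.1%, TATAAA in 2 (4.26%) against 14.2%, and the MEF2 consensus in 1, *Cox6a2* (2.13%), against 0.565%. The members with the NRF-1 site were *Atp5f1c*, *Atp5po*, *Ndufa5*, *Ndufs6*, *Ndufv3* and *Sdha*. These matches are descriptions of the letters in a window and were not related to the array values.

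No gene of the respiratory chain or of ATP synthase passed the test between any pair of ages, and most age means of a gene lay within 1.2-fold of each other. By limma, 0 of 55 genes had a Benjamini-Hochberg adjusted p under 0.05 in any of the 3 comparisons. Over all tested probe sets the share past that threshold was 0.0763% for 18 against 6 months, 0.324% for 30 against 6 months and 0.0191% for 30 against 18 months. The smallest adjusted p among the members was 0.579, 0.338 and 0.999 in these comparisons. By direction, 0.0381% of all tested probe sets passed as higher and 0.0381% as lower at 18 against 6 months, 0.153% and 0.172% at 30 against 6 months, and 0.0191% and 0.0% at 30 against 18 months. At an unadjusted p under 0.05 there were 0, 1 and 0 members, against 8.62%, 12.9% and 3.2% of all tested probe sets. The 1 member was *Cox8b* at 30 against 6 months.

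The confidence intervals give the size of change that these arrays leave possible. The highest mean of a gene over the ages was a median of 1.11 times its lowest, and 49 of 55 genes stayed under 1.2-fold. *Ndufa9*, at 1.42-fold, had the widest span among the 55 tested genes. The study's own rule asked for average changes over 1.7-fold. None of the 55 tested members reached it, while the untested *Cox6c-ps1* had age means 2.35-fold apart, and 1.43%, 2.23% and 0.629% of all tested probe sets had a ratio of means over 1.7 without overlap in the 3 comparisons. The 95% confidence interval of the change lay within 1.5-fold in either direction for 50 genes at 18 against 6 months, for 47 at 30 against 6 months and for 50 at 30 against 18 months. A gene whose interval is this narrow may still have changed by less than its width. The widest interval at 30 against 6 months was that of *Cox7a2l*, from 0.847- to 2.16-fold.

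**Figure D1:**
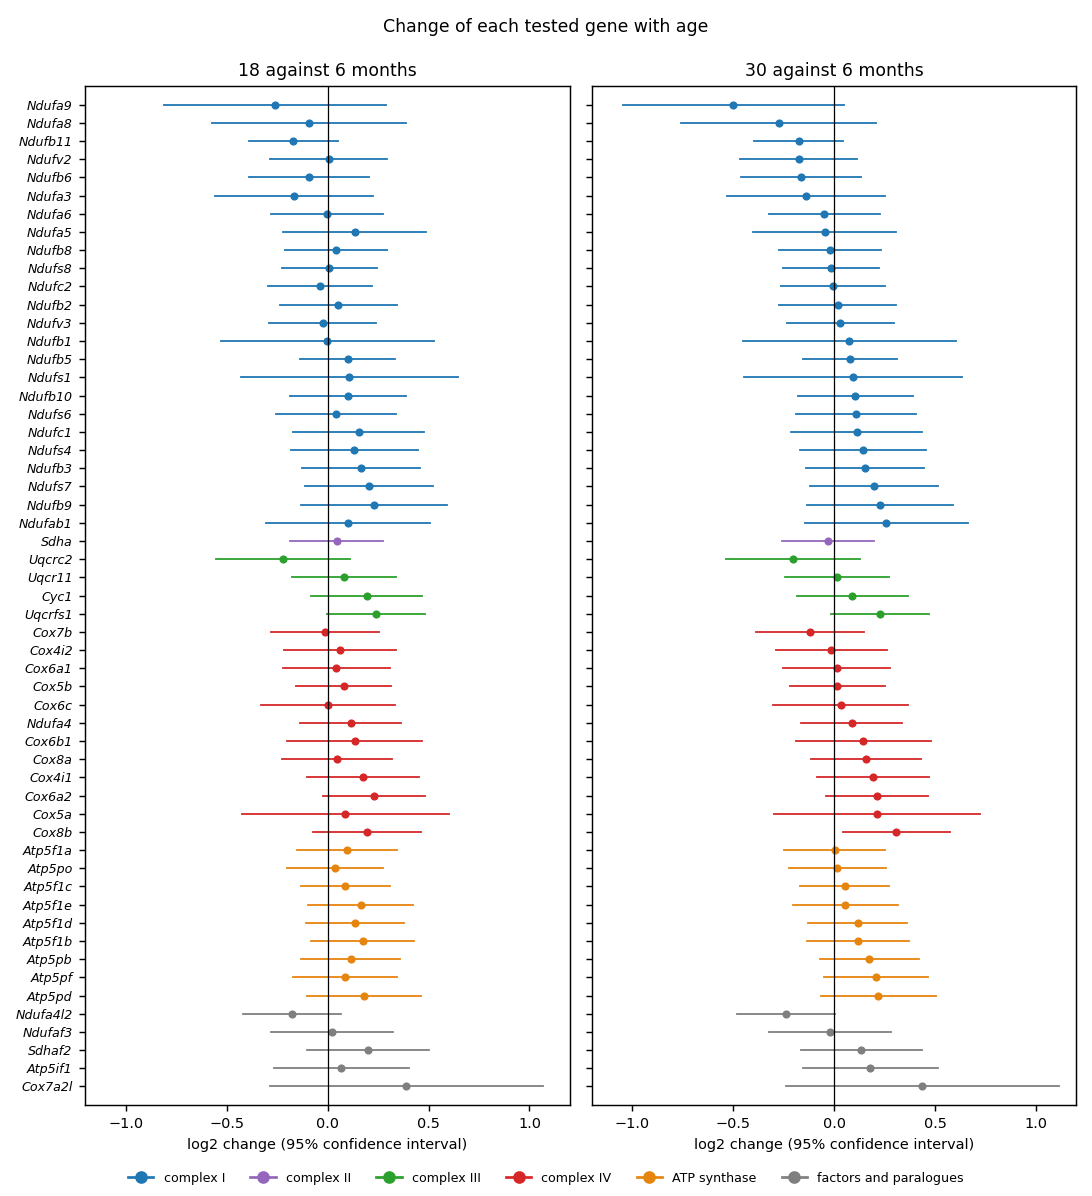
Log2 change of the 55 tested genes at 18 and at 30 against 6 months, ordered within each complex by the change at 30 months. Points are estimates from limma over 3 arrays per age and lines are 95% confidence intervals; the only interval clear of 0 is that of Cox8b at 30 months, before adjustment over all probe sets.

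More members read above 6 months than below it with the deposited scaling, and 29 of 55 lay above the median of other genes of like signal. At 18 months 43 of 55 genes (78.2%) were higher than at 6 months, with a median log2 change of 0.09, against 42.3% of all tested probe sets with a median of -0.04. At 30 months 38 of 55 (69.1%) were higher, with a median of 0.08, against 41.2% and -0.05. The members are bright, however, with a median mean signal of 8562 against 319 for all tested probe sets, and 50 of the 55 lay in the fifth of probe sets with the strongest signals. There 61.3% of probe sets were higher at 18 months and 59.9% at 30 months, with medians of 0.04 in each. Against the running median of the 200 tested probe sets nearest in signal that are no members, 29 of 55 genes lay above it at 18 months and 29 at 30 months. The median excess was 0.02 and 0.0082 on the log2 scale. From a mean log2 signal of 14 upward this running median was flat, at 0.12 and 0.11. There the 200 nearest probe sets no longer changed with signal. For the brightest members, such as *Cox4i1* and *Cox8b*, the comparison was therefore not one of closely like signal. After quantile normalization the split was 28 higher and 27 lower at 18 months (median 0.00095) and 27 higher and 28 lower at 30 months (-0.0089). Cyclic loess gave 29 and 26 genes higher, with medians of 0.0062 and -0.015.

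**Figure D2:**
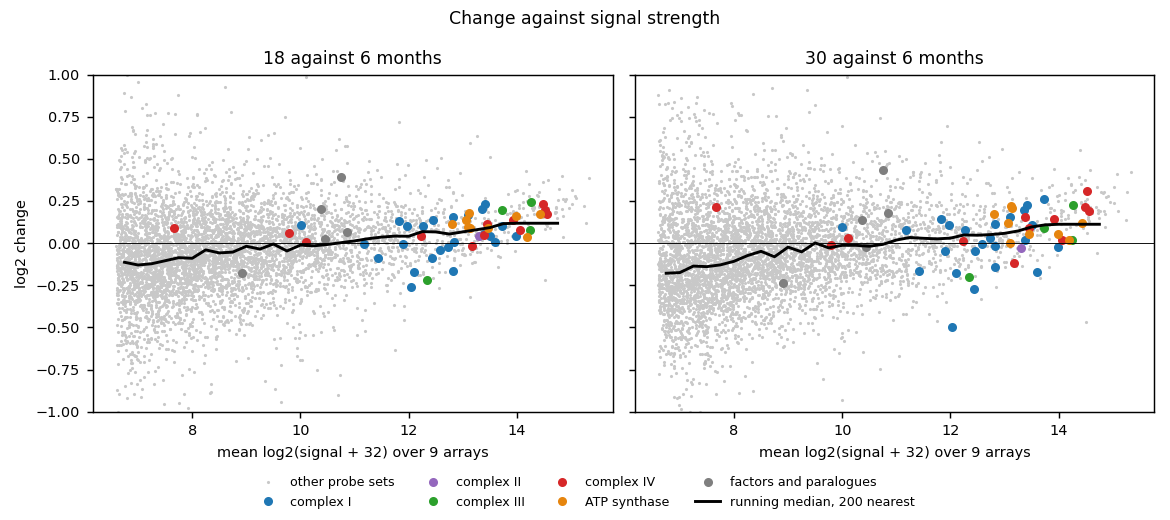
Log2 change against mean log2(signal + 32) over 9 arrays for 5244 probe sets, with the members coloured by complex and the running median of the 200 nearest other probe sets as a line; points beyond 1 in either direction are not drawn. The line climbs with signal and is flat from 14 upward, where the nearest probe sets stay the same. The members scatter on both sides of the line, 29 of 55 above in each panel.

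From 18 to 30 months 20 of 55 genes were higher and 35 lower, with a median of -0.02, which was also the median of all tested probe sets, of which 45.9% were higher. In the brightest of the 5 signal classes 48.5% were higher, with a median of -0.0030, and 20 of 55 members lay above genes of like signal, with a median excess of -0.02. The counts were the same after quantile normalization and cyclic loess. The median was 0.01 without replicate 3 of 18 months and just above 0 without replicate 3 of 30 months, so its sign rested on these arrays. The comparisons with 6 months share the same baseline arrays, so their likeness is not independent.

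Arrays of both ages did not overlap for 8 of 55 members (14.5%) at 18 against 6 months, 6 higher and 2 lower, where 13.7% of all tested probe sets did not overlap (5.32% higher, 8.35% lower). At 30 against 6 months this held for 14 members (25.5%), 9 higher and 5 lower, against 22.2% of all (7.4% higher, 14.8% lower). Between 18 and 30 months it held for 1 member, which was *Sdha* on the lower side, against 7.36% of all (3.18% higher, 4.18% lower). Over both directions the shares of members were close to those of all probe sets against 6 months and below them between 18 and 30 months.

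Complex I has an arm in the matrix that takes electrons from NADH and an arm in the membrane that pumps protons. Of its 24 tested subunits 15 were higher at 18 months and 13 at 30 months than at 6 months, with median log2 changes of 0.04 and 0.02. These medians were -0.04 and -0.05 after quantile normalization and -0.05 and -0.07 after cyclic loess, so the side of 6 months on which complex I lay depended on the scaling. Relative to probe sets of like signal, 9 and 11 of the 24 lay above, with median differences of -0.04 at each age.

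*Ndufa9* encodes an accessory subunit of the matrix arm near its junction with the membrane arm. Its signal was 5877, 4659.6 and 4471 at 6 months, then 6374, 3469 and 3199.5 at 18 months, then 3997, 3521 and 3062 at 30 months. Replicate 1 was the highest array at every age, and the 30-month arrays all lay below those of 6 months, while those of 18 months covered both. Its log2 change at 30 months was -0.50 (SE 0.25, limma adjusted p = 0.414), with a residual SD of 0.35 against a median of 0.12 for probe sets of like signal. *Ndufa8*, an accessory subunit that lies on the other side of the inner membrane, read 6379, 5799.9 and 5818 at 6 months, then 8353, 4499 and 4731 at 18 months, then 4827, 4523 and 5549.9 at 30 months. Here too replicate 1 of 18 months stood above all other arrays, and the 30-month arrays lay below those of 6 months.

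*Ndufb11*, a small subunit of the membrane arm, was the most even of the lower genes. It read 4903, 4564 and 4738 at 6 months, then 4196, 4249.8 and 4171 at 18 months, then 4079, 4351 and 4138 at 30 months. All arrays of both later ages lay under all of 6 months, in a narrow band. The log2 change was -0.17 at 18 months and -0.18 at 30 months (SE 0.10 each, limma adjusted p = 0.645 and 0.469). *Ndufb9*, another subunit of that arm, read 7889, 12386 and 9561 at 6 months, then 11218, 11989.6 and 11215 at 18 months, then 12550.1, 11280.2 and 10593 at 30 months. Its lowest array was replicate 1 of 6 months, and the ages overlapped (log2 change 0.23 and 0.23, SE 0.16). *Ndufb8*, a membrane-arm subunit often used to gauge assembled complex I, had the strongest signal among the complex I probe sets. It read 18036, 15364 and 15178 at 6 months, then 15882, 16523 and 17464 at 18 months, then 16729.6, 15708 and 15290.4 at 30 months. The ages overlapped, with log2 changes of 0.04 and -0.02, and -0.12 and -0.18 after quantile normalization.

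Among the core subunits of the matrix arm, which carry the iron-sulfur clusters, the 30-month log2 changes were 0.09 for *Ndufs1*, 0.20 for *Ndufs7*, -0.02 for *Ndufs8* and -0.17 for *Ndufv2*. *Ndufv2* had mean signals of 12858 ± 172 (6 months) and 11406 ± 687 (30 months; SD, n = 3), without overlap. The accessory subunits *Ndufs4* (0.14), *Ndufs6* (0.11), *Ndufv3* (0.03), *Ndufa5* (-0.05) and *Ndufa6* (-0.05) lay within 0.15 of 6 months at 30 months. So did *Ndufa3* (-0.14), *Ndufb1* (0.08), *Ndufb2* (0.02), *Ndufb5* (0.08), *Ndufb10* (0.11), *Ndufc1* (0.11) and *Ndufc2* (-0.01). *Ndufb3* (0.15) and *Ndufb6* (-0.16) lay a little beyond, and the other probe set of *Ndufb6* gave 0.16. *Ndufab1*, the mitochondrial acyl carrier protein, read 12798, 13004 and 11379 at 6 months, then 10163, 16099 and 14282 at 18 months, then 13916, 17525 and 13322 at 30 months. Its 30-month arrays lay above those of 6 months, and the 18-month arrays held both its lowest signal and one of its highest. Its probe set of next strongest signal went the other way, at -0.28 against 0.26.

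*Sdha*, the flavoprotein that oxidizes succinate, was the only subunit of complex II in the set. It read 10625, 9537 and 9854 at 6 months, then 10939, 9932 and 10089 at 18 months, then 9703, 9828 and 9832 at 30 months. Levels at 30 months sat just below those of 18 months without overlap, and inside the range of 6 months. The log2 changes were 0.04 at 18 and -0.03 at 30 months against 6 months (SE 0.10), and -0.07 from 18 to 30 months (limma adjusted p = 0.999). The 18-month change turned to -0.04 after quantile normalization and -0.06 after cyclic loess. With a 95% interval of -0.26 to 0.20 at 30 months, *Sdha* was among the most tightly measured members.

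In complex III 3 of 4 genes were higher than at 6 months at each later age, with medians of 0.14 and 0.05. These medians became -0.05 and -0.09 after quantile normalization, and 0.0094 and -0.08 after cyclic loess. Relative to probe sets of like signal 2 and 1 of the 4 lay above, with median differences of 0.03 and -0.06. *Uqcrfs1*, the Rieske iron-sulfur protein, read 18032, 17438 and 17283 at 6 months, then 19148, 20332 and 23107 at 18 months, then 20634, 20997 and 20207 at 30 months. Every array of 18 and 30 months lay above every array of 6 months. Its log2 change was 0.24 and 0.23 (SE 0.11, limma adjusted p = 0.579 and 0.403), and 0.04 at each age after quantile normalization. A second probe set gave 0.28 and 0.23, and the third -0.10 and -0.16, so that the gene's probe sets disagreed in sign.

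*Uqcrc2*, a core protein on the matrix side of complex III, lay on the lower side. It read 6525, 5132 and 5422 at 6 months, then 4993, 4122 and 5570.1 at 18 months, then 4603, 4762 and 5415 at 30 months, with overlapping ages (log2 change -0.22 and -0.20, SE 0.15). *Cyc1*, the cytochrome c1 that reduces cytochrome c, read 13426, 12945 and 11638 at 6 months, then 15458, 13159 and 14903 at 18 months, then 14495, 13943 and 12084 at 30 months. Its 18-month arrays were mostly the higher ones, and the ages overlapped (log2 change 0.19 at 18 months and 0.09 at 30 months, SE 0.12), and the 30-month change was -0.03 after cyclic loess. *Uqcr11*, a small membrane subunit, read 19517, 18808 and 18620.3 at 6 months, then 20572, 20108 and 19541 at 18 months, then 19551, 21336 and 16932 at 30 months. All 18-month arrays lay just above those of 6 months, and the 30-month arrays held both the highest and the lowest (log2 change 0.08 and 0.02).

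Complex IV had 11 of 12 tested genes higher at 18 months and 10 of 12 at 30 months, with medians of 0.08 and 0.12. Relative to probe sets of like signal 7 and 8 of the 12 lay above, with median differences of 0.02 and 0.04. After quantile normalization 7 of 12 were higher at each age (medians 0.0015 and 0.0076), and after cyclic loess 8 of 12 (0.01 and 0.03). Among the genes of this complex with values per array, quantile normalization turned the sign of *Cox4i1* (-0.0089), *Cox6a1* (-0.03), *Cox6a2* (-0.02) and *Cox4i2* (0.0068) at 30 months. At 18 months it turned that of *Cox8a* (-0.02), *Cox8b* (-0.0065) and *Cox6b1* (-0.0033). Among the same genes cyclic loess turned that of *Cox6a1* at both ages (-0.02 and -0.05), of *Cox4i2* at 30 months (0.01) and of *Cox8a* at 18 months (-0.06). The counts also cover genes of the complex that are not in these lists. *Ndufa4* was counted here, since its product, first assigned to complex I, is a subunit of complex IV. The isoform genes were compared in pairs, because fibres of contractile tissue use their own forms of subunits 6a and 8.

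*Cox8b*, the contractile form of subunit 8, read 20717, 21222 and 20791 at 6 months, then 21415, 26912 and 23802 at 18 months, then 25854, 27785 and 24166 at 30 months. The 6-month arrays were nearly identical, and every later array lay above them. The mean signal was 20910.0 ± 273 at 6 months and 25935 ± 1811 at 30 months (SD, n = 3), a log2 change of 0.31 with a 95% interval of 0.04 to 0.57 (limma adjusted p = 0.338). It was 0.09 after quantile normalization and 0.16 after cyclic loess (at 18 months -0.0065 and 0.05). The gene's other probe set gave 0.06 at 18 months and 0.22 at 30 months. In that probe set replicate 1 of 18 months, at 13420.8, lay below all arrays of 6 months. *Cox8a*, the form of other tissues, read 11538, 9834 and 9229.5 at 6 months, then 9951, 10993 and 10528 at 18 months, then 11558, 11973 and 10508 at 30 months. Its ages overlapped, with log2 changes of 0.05 and 0.16 (SE 0.12). After quantile normalization its 30-month change was 0.12, above that of *Cox8b*, and after cyclic loess 0.05. The other probe sets of *Cox8a* gave 0.19, 0.21 and 0.01 at 18 months, and in the same order 0.21, 0.15 and -0.03 at 30 months.

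*Cox6a2*, the contractile form of subunit 6a, read 21620.1, 19881 and 20389 at 6 months, then 23811, 21868 and 27186 at 18 months, then 23656, 24288 and 23748 at 30 months. Here too all later arrays lay above all of 6 months, the 18-month arrays with the wider spread. Its log2 change was 0.23 at 18 months and 0.21 at 30 months (SE 0.11, limma adjusted p = 0.614 and 0.455). After quantile normalization it was 0.04 and -0.02, so its direction at 30 months turned, and after cyclic loess 0.08 and 0.06. *Cox6a1*, the other form, read 5229, 4491 and 4427 at 6 months, then 5042, 4814 and 4686 at 18 months, then 5022, 4984 and 4261 at 30 months. Its arrays overlapped throughout, with log2 changes of 0.04 and 0.01 (SE 0.12). The other probe sets of *Cox6a1* gave 0.0098 and -0.13 at 18 months, and in the same order 0.16 and 0.11 at 30 months. The other tested probe set of *Cox6a2* gave 0.17 at 18 months and 0.19 at 30 months.

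The difference in change between partners was tested on the log2 ratio within each array, for 3 pairs and 3 comparisons. At 30 against 6 months *Cox6a2* gained 0.20 on *Cox6a1* (two-sided exact permutation p = 0.1, adjusted p = 0.45 over 9 tests) and *Cox8b* gained 0.15 on *Cox8a* (exact p = 0.2, adjusted p = 0.45). These differences depended on the scaling. That of *Cox6a2* and *Cox6a1* was 0.0016 after quantile normalization and 0.11 after cyclic loess, and that of *Cox8b* and *Cox8a* turned to -0.02 and was 0.11. With 3 arrays against 3, 0.1 is the smallest p this test can give. *Cox4i1*, the common form of subunit 4, read 25188, 21239 and 20358 at 6 months, then 25289, 22986 and 26893 at 18 months, then 25643, 26727 and 23744 at 30 months. Its partner *Cox4i2*, which is known for its role in the oxygen response of the lung, read 949, 728 and 868 at 6 months, then 889, 852 and 907 at 18 months, then 904, 817 and 790.1 at 30 months. Both overlapped between ages, and the difference in their change at 30 against 6 months was 0.21 (exact p = 0.2, adjusted p = 0.45). This difference turned to -0.02 after quantile normalization and was 0.03 after cyclic loess. In the other probe sets of *Cox4i1* the 30-month change was 0.08 and 0.11, against 0.19 in the one used. In none of the 9 tests, all on the deposited scaling, was the adjusted p under 0.45, which does not show that partners changed alike.

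**Figure D3:**
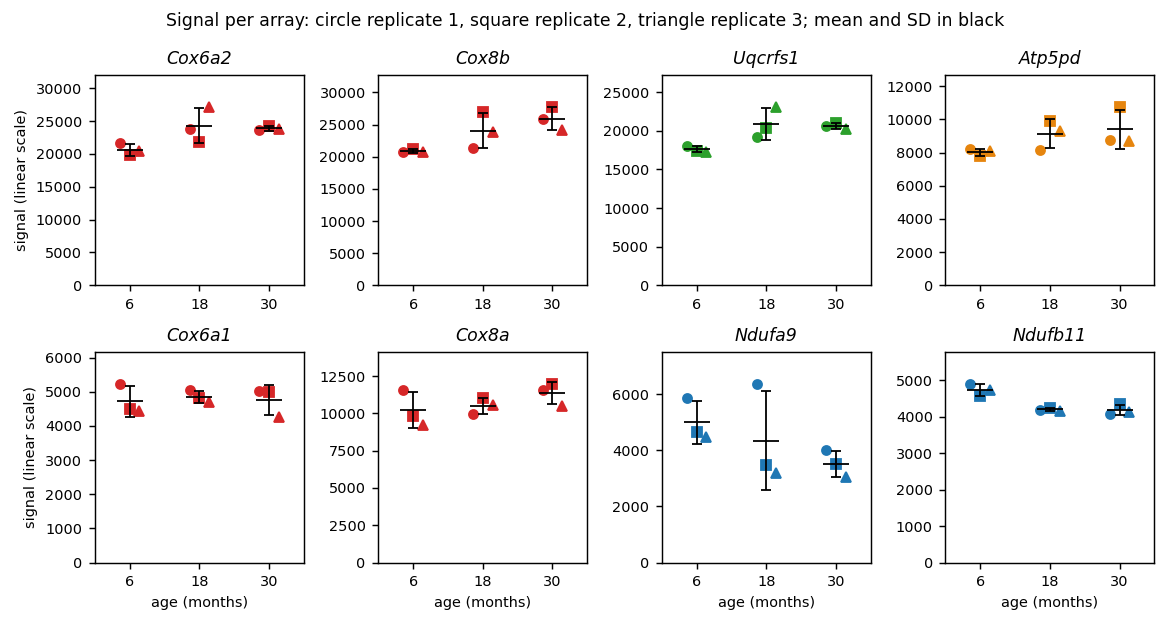
Signal on the linear scale for 8 genes on each of the 9 arrays, with the mean and SD of 3 arrays per age in black and the y axis from 0. With the deposited scaling every 18- and 30-month array lies above the 6-month arrays for Cox6a2, Cox8b and Uqcrfs1 and below them for Ndufb11, while Ndufa9 has its highest array in replicate 1 at each age.

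The remaining genes of complex IV overlapped between 6 months and each later age. *Cox6b1*, which faces the intermembrane space, read 16902, 11425 and 15759.8 at 6 months, then 15019, 15883 and 16904 at 18 months, then 16337, 15975 and 15785 at 30 months, with replicate 2 of 6 months as the low array (log2 change 0.15 at 30 months, SE 0.15). At 30 months the log2 change was 0.02 for *Cox5b*, 0.03 for *Cox6c*, -0.12 for *Cox7b* and 0.09 for *Ndufa4*. *Cox5a* had the weakest tested signal of the set, 159 ± 35.4 at 6 months and 195 ± 78.9 at 30 months (SD, n = 3), and a wide interval of -0.30 to 0.72.

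With the deposited scaling all 9 genes of ATP synthase read above 6 months at both later ages, with median log2 changes of 0.12 at each, but not under the other normalizations. The largest of these changes was 0.22, and none passed the test. After quantile normalization 6 of 9 were higher at 18 months and 4 of 9 at 30 months (medians 0.0095 and -0.04), and after cyclic loess again 6 and 4 (0.03 and -0.03). Relative to probe sets of like signal 7 of 9 and 5 of 9 lay above.

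The catalytic head of ATP synthase is built of α and β subunits around the central stalk. *Atp5f1b*, the catalytic β subunit, read 22254, 19624 and 19795 at 6 months, then 23793, 20992 and 24816 at 18 months, then 21509, 23002 and 22439 at 30 months. Its ages overlapped, with log2 changes of 0.17 and 0.12 (SE 0.11), which became -0.02 and -0.09 after quantile normalization. *Atp5f1a*, the α subunit, had 0.10 and 0.00. The central stalk genes *Atp5f1c*, *Atp5f1d* and *Atp5f1e* (γ, δ and ε) had 30-month changes of 0.05, 0.12 and 0.06. The arrays of *Atp5f1c* differed so little within an age that those of 18 and 30 months lay above 6 months without overlap.

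The peripheral stalk holds the head against the turning rotor. Of its genes *Atp5pd*, *Atp5pf* and *Atp5pb*, but not *Atp5po*, had the largest values of this complex at 30 months with the deposited scaling. *Atp5pd*, subunit d, read 8192, 7791 and 8108 at 6 months, then 8178, 9908 and 9279 at 18 months, then 8765, 10764 and 8674 at 30 months. Its 30-month arrays lay above those of 6 months, with replicate 2 highest at both later ages (log2 change 0.22, SE 0.13, limma adjusted p = 0.482). *Atp5pf*, coupling factor 6, read 8358, 8438 and 8219 at 6 months, then 8276, 8693 and 9684 at 18 months, then 9727, 10530.0 and 8763 at 30 months. The 30-month arrays again lay above, at a log2 change of 0.21 (SE 0.11), but the gene's other probe set gave -0.05. *Atp5pb*, subunit b, read 6762, 6349 and 6739 at 6 months, then 7112, 6751 and 7671 at 18 months, then 6851, 7822 and 7771 at 30 months. It had 0.17 at 30 months (SE 0.11), also without overlap. *Atp5po*, the subunit that joins this stalk to the head, had only 0.02, and -0.20 in its other probe set. For *Atp5pd*, *Atp5pf* and *Atp5pb* the 30-month change after quantile normalization was 0.15, 0.15 and 0.08.

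Among the factors and paralogues 4 of 5 tested genes were higher at 18 months and 3 of 5 at 30 months. *Cox7a2l*, which joins complexes III and IV into supercomplexes, read 869, 1461 and 2092 at 6 months, then 1460.3, 2223 and 1878 at 18 months, then 2123, 2231 and 1420.4 at 30 months. Its 3 arrays of 6 months alone spanned more than the difference between ages, and the log2 change at 30 months was 0.44 (SE 0.30, limma adjusted p = 0.552) in this probe set and 0.16 in the other. *Ndufa4l2*, a paralogue of *Ndufa4* that is induced by low oxygen, read 506, 503 and 489 at 6 months, then 393, 456 and 469 at 18 months, then 418, 437 and 401 at 30 months. All later arrays lay below 6 months, at a log2 change of -0.24 (SE 0.11, limma adjusted p = 0.39). Its other 4 probe sets ran from -0.67 to -0.0053, and 4 of its 5 carry the platform's suffix for sequence families, so this signal may not be of 1 gene.

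*Atp5if1*, which blocks ATP synthase from running backwards when the membrane potential is lost, read 1712, 1628 and 1806 at 6 months, then 1809, 2159 and 1489 at 18 months, then 2186, 1862 and 1809 at 30 months. Its 30-month arrays lay just above those of 6 months (log2 change 0.18, SE 0.15), and its dimmer probe sets gave 0.18 and -0.28. All tested probe sets of *Atp5if1* carry the suffix for sequence families, so this signal too may not be of 1 gene. *Sdhaf2*, which attaches the flavin to *Sdha*, read 1022, 1421 and 1178 at 6 months, then 1483, 1386 and 1277 at 18 months, then 1273, 1336 and 1344 at 30 months. The low array was replicate 1 of 6 months, and the ages overlapped (log2 change 0.14, SE 0.13). *Ndufaf3*, an assembly factor of complex I, had -0.02.

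How far such values can be read is shown by genes with more than 1 probe set. Of 27 genes with several tested probe sets, all probe sets lay on the same side of 6 months in 14 at 18 months and in 13 at 30 months. From 18 to 30 months this was so in 12. The median residual SD of the members was 0.124 on the log2 scale, against 0.12 for probe sets of like signal and 0.195 for all tested probe sets, and 28 of 55 members had a residual SD below that of their neighbours in signal.

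Within 18 months and within 30 months the arrays differed by as much as the ages did, while the 6-month arrays lay close together. With the deposited scaling the median of all members was higher on every later array than on any 6-month array. The same held for the brightest of the 5 signal classes. The median deviation of all 55 genes from their mean over 9 arrays was -0.04, -0.05 and -0.03 at 6 months. It was -0.03, 0.02 and 0.09 at 18 months, and 0.04, 0.05 and -0.03 at 30 months. Replicate 3 of 18 months was thus the highest array, while replicate 1 of 18 months and replicate 3 of 30 months lay just above those of 6 months and below 0. Replicate 3 of 30 months was the lowest array of its age for 35 of 55 genes, and replicate 1 of 18 months for 27 of 55. At 6 months the complexes diverged on replicate 1, where complex IV stood at 0.09 and complex I at -0.07. On replicate 2 of 6 months they stood at -0.10 and 0.03.

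**Figure D4:**
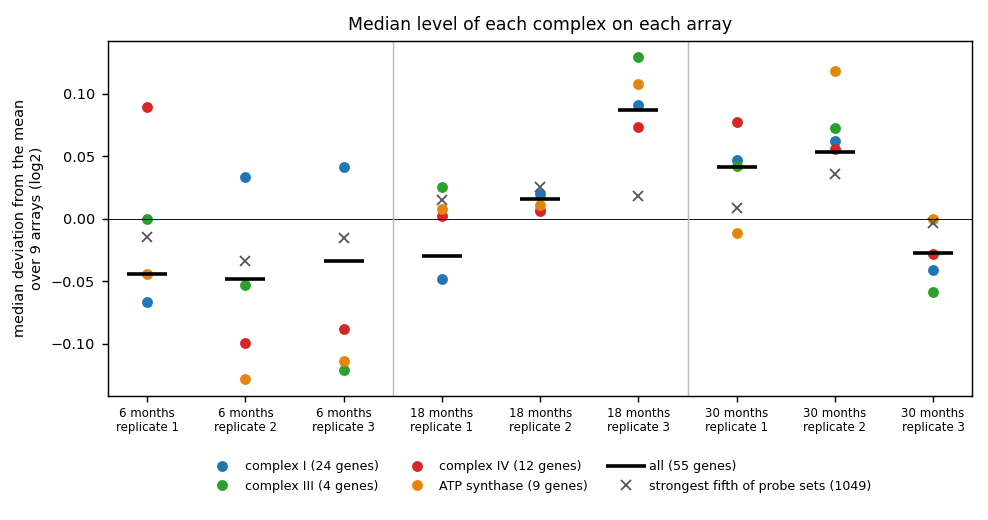
Median deviation of each complex from its genes' means over 9 arrays (log2), per array, with all 55 genes as bars and the brightest of 5 signal classes as crosses. The bars run from -0.05 to 0.09, and 2 of the 6 later arrays lie below 0 with the 6-month arrays.

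Other mitochondrial genes were counted in lists by role. In lists of carriers and pores (12 tested), electron entry and quinone genes (5), biogenesis regulators (7) and assembly and import genes (10), 0 genes passed in any comparison in either direction. None of the listed mitochondrially encoded genes matched a probe set by symbol. Of the carriers and pores 10 of 12 were higher at 18 months and 8 of 12 at 30 months, with medians of 0.14 at each. *Slc25a3*, which imports the phosphate that ATP synthase uses, read 17499, 15864 and 15514 at 6 months, then 20448, 20285 and 21534 at 18 months, then 19614, 21353 and 20972 at 30 months. All later arrays lay above 6 months (log2 change 0.34 at 30 months, SE 0.10, limma adjusted p = 0.283). The uncoupling protein gene *Ucp2* had 0.39, and *Ckmt2*, the mitochondrial creatine kinase of striated muscle, 0.26.

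Electron entry genes had medians of -0.08 at each later age, with *Etfa* at -0.20, *Gpd2* at 0.16 and *Coq3* at -0.11 at 30 months. Among the regulators *Prkaa2*, the catalytic subunit of AMP-activated kinase that prevails in muscle, had -0.60 at 18 months and -0.29 at 30 months. *Polg2*, of the mitochondrial DNA polymerase, had 0.52 at 30 months, and *Nfe2l2* had -0.32. The signal of *Polg2* was weak, with means of 51.3, 79.7 and 87 at 6, 18 and 30 months. Its 6-month level lay under the cutoff of the filter, so it was tested only through its later ages. In the assembly and import list 1 of 10 genes was higher at 30 months, against 41.2% of all tested probe sets, with a median of -0.12. Its named genes were the chaperonin *Hspe1* (-0.35), the import motor scaffold *Timm44* (-0.40) and *Hspa9* (-0.42).

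Markers of muscle fibres, which differ in mitochondrial content by type, also read above 6 months with the deposited scaling; these and the other lists were not rescaled. All 8 tested genes of the general fibre list were higher at each later age (medians 0.19 and 0.22), as were 5 and 6 of 7 slow-fibre genes (0.27 and 0.09) and 4 of 5 fast-fibre genes (0.17 and 0.17), with 0 past the threshold in either direction. The summed signal of the slow-fibre markers was 26641 to 31509 at 6 months, 33757 to 41074 at 18 months and 33464 to 35028 at 30 months. That of the fibroblast markers was 16810.2 to 21279 at 6 months against 12229.5 to 13303 at 18 months and 13621 to 13826 at 30 months, and 1 and 3 of its 7 genes fell by limma. In the adipocyte, endothelial, erythroid, immune, Schwann cell and brown adipocyte lists, with 5, 2, 2, 2, 3 and 1 tested genes, 0 passed in any comparison. The part of fibre make-up or connective tissue in the members' values was not tested.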

How the data were processed

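The deposited table holds 1 signal intensity per probe set and array, computed by the authors with Affymetrix Microarray Suite 5.0, per the labels' design text and the submitters' processing notes, on a linear scale. No detection calls were used here. The authors' global scaling was kept. Of 8799 probe sets 59 controls were left out, 7006 of the rest carry 1 gene symbol in the platform's annotation table, and 5244 in the upper 60% by mean log2(signal + 32) were tested. All 56 member genes matched the RefSeq table of GRCr8 with unchanged symbols.

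Group means of the 3 ages were estimated jointly from the 9 arrays by limma (version 3.58.1 under R 4.3.3; functions lmFit and eBayes), and two-sided p-values were adjusted by Benjamini and Hochberg over all tested probe sets at 0.05. Fold changes on this log2 scale understate those of weak signals. P-values measure the spread between pools. The limma step was also run on simulated data with independent normal noise. These held no shift that depends on signal and no effects of arrays, so they do not bear on either. Values per array were given for the 3 genes with the smallest F-test p and the brightest gene of each complex, and for the isoform genes of complex IV, which include *Cox6b1* although its partner was not analysed here. In each other mitochondrial list up to 3 genes were named by F-test p. *Ndufa8*, *Ndufab1*, *Uqcr11* and the arrays of *Slc25a3* were added after their values were seen. Members, groups and lists were chosen with earlier results of these data known. Alternatives were other pseudocounts, normalizations, filters, variance models, probe set choices, only the arrays of both ages, a replicate block and leaving out each array.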

Additional observations from a re-analysis of the deposited data

How the results depend on the processing

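Under all 20 alternatives to each fit, 0 member genes passed the threshold in each of the 3 comparisons, with a smallest adjusted p of 0.311, 0.23 and 0.666 for 18 against 6, 30 against 6 and 30 against 18 months. At 18 against 6 months the median change, 0.09 with the deposited scaling, was 0.00095 after quantile normalization and 0.0062 after cyclic loess. At 30 against 6 months it went from 0.08 to -0.0089 and -0.015. When 1 array was left out, these medians ran from 0.05 to 0.12 at 18 months, from 0.03 to 0.11 at 30 months, and from -0.05 to 0.01 between 18 and 30 months. The median excess over probe sets of like signal ran from -0.013 to 0.039, from -0.035 to 0.033, and from -0.04 to 0.016. The value -0.035 came without replicate 1 of 30 months.

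With the replicate number as a block (replicate block), the count stayed at 0 and the medians at 0.09, 0.08 and -0.02. Deviations of arrays with the same number correlated at -0.02 to 0.26, and not every array matched its own number best, so the numbers were not taken as pairs. Between 18 and 30 months each array did so, at 0.26, 0.22 and 0.09 for replicates 1, 2 and 3, against -0.21 to 0.0021 for different numbers. Of 1374 values of the 23 genes named by rule under the alternatives, 68 changed sign, 39 moved by more than their standard error, and 0 passed the threshold. The depth of an array is its signal over background, which is not given in the sources used here.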
